A study of Mus musculus with 9 samples.

Results

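Low avidity CD8+ T cells specific for the tumor peptide GSW11 were compared between CT26 tumors that progressed and CT26 tumors that regressed on anti-PD-1. The comparison takes 6 of the 9 libraries of the series, chosen by the group in their titles: 3 libraries from progressing tumors (TetLowProg, replicates 9, 10 and 12) and 3 from regressing tumors (TetLowReg, replicates 6, 7 and 8). All 6 came from wildtype BALB/c mice carrying the subcutaneous colorectal carcinoma line CT26.WT, and every animal was given the anti-PD-1 antibody RMP1-14 on days 3, 6 and 9 after implantation, so no untreated cells enter the comparison. Cells were sorted from the tumor as CD8+ CD44+ with low staining by GSW11 tetramer (Tet lo), and bulk RNA was amplified by Smart-seq2. A tumor was assigned to its group by its early growth response, so the groups were set by outcome and not by an intervention. The other 3 libraries, of high avidity cells from progressing tumors, entered the fit for its estimate of the spread and its filter on low counts, and are not described. The labels number the libraries and do not say which animal each came from, so p-values measure the spread between these libraries.

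GSW11 is an epitope derived from an endogenous retroviral protein and presented by the class I molecule H2-Dd. A tetramer of this complex binds T cells through their receptor, and weak binding at an equal receptor level is read as low avidity. PD-1 dampens signals from the T cell receptor and CD28, and its blockade acts mainly on cells that keep the transcription factor TCF-1 (Tcf7), the precursor exhausted cells, which can still proliferate and give rise to effector cells. The question put to the low avidity cells was which genes separate cells of tumors that shrank from cells of tumors that kept growing on the same therapy.

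The libraries held 16405306 to 36429515 gene counts, and the number of genes seen did not follow this depth. With a gene called found at 10 counts or more, 8004 and 7234 genes were found in TetLowReg 7 and 8 and 8071 and 6443 in TetLowProg 9 and 12, but only 766 in TetLowReg 6 and 1148 in TetLowProg 10. Each group therefore held 1 sparse library, and thinning every library to 16405306 counts gave 740 and 1118 genes for the sparse pair against 6129 to 7863 for the others. The mean number of genes found was 5221 ± 3620 (SD, n = 3) in TetLowProg and 5335 ± 3975 in TetLowReg, a difference within the spread (p = 1 in an exact two-sided permutation of the libraries, which with 3 a group reaches 0.1 at the least). Only 378 genes were found in all 6 libraries.

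**Figure D1:**
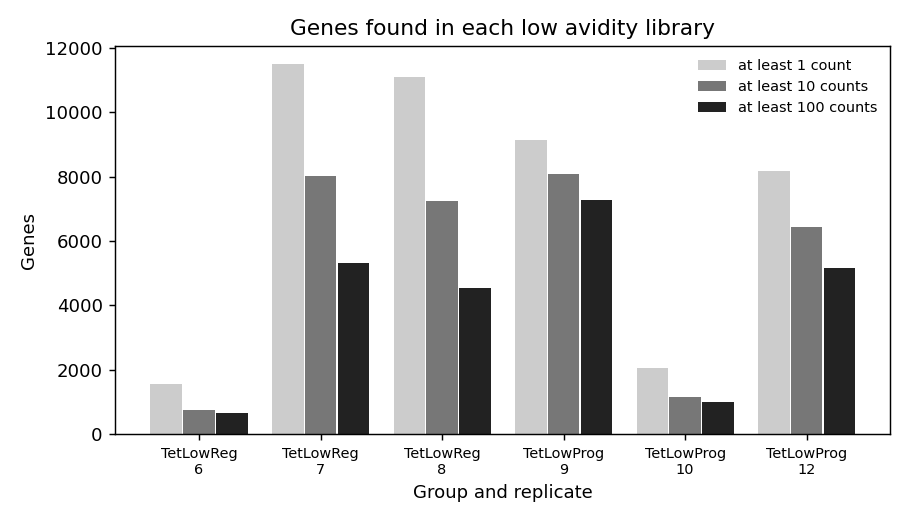
Number of genes (vertical axis) with at least 1, 10 or 100 counts in each of the 6 low avidity libraries (horizontal axis, group and replicate). At 10 counts or more, TetLowReg 6 held 766 genes and TetLowProg 10 held 1148, and the other 4 libraries held 6443 to 8071.

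T cell markers were found in every library, though not the same ones. Of 8 T cell markers (Cd3d, Cd3e, Cd3g, Cd8a, Cd8b1, Trac, Trbc1 and Trbc2), 8 were found in each of TetLowReg 7 and 8 and TetLowProg 9 and 12, 6 in TetLowReg 6 and 5 in TetLowProg 10. Their summed share of gene counts ran from 0.0458% to 0.674% in TetLowReg and from 0.202% to 0.484% in TetLowProg. Markers of other cells were nearly absent from the sparse libraries. Among the libraries rich in genes, TetLowProg 9 held the smallest share of B cell markers and of macrophage and dendritic markers. Of 7 B cell markers, 6, 7 and 7 were found in TetLowReg 7, TetLowReg 8 and TetLowProg 12, against 1 in TetLowProg 9 and 0 in either sparse library, and their share was 0.275%, 0.230% and 0.276% in the first 3. Macrophage and dendritic markers made up 0.823% in TetLowReg 7, almost all of it Lyz2, 0.119% in TetLowReg 8, 0.0579% in TetLowProg 12 and 0.00227% in TetLowProg 9. C1qa was at 0 in every library. The cells were sorted as CD8+ CD44+ and tetramer-binding, and whether other cells were present among them was not tested. The marker counts occur in libraries of both groups, and their part in the differences below was not tested.

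Libraries of 1 group were no closer to each other than to the other group. Across the 5813 tested genes, the Spearman correlation of counts averaged 0.30 within groups and 0.33 between them, and the pairs with the highest values were TetLowReg 8 with TetLowProg 12 (0.48) and TetLowReg 7 with TetLowProg 12 (0.48). The sparse libraries, TetLowReg 6 and TetLowProg 10, correlated at 0.38, above any value either of them had with its own group. Genes are not independent replicates, so these values carry no test. In bulk RNA of sorted cells, fewer cells of a type and less RNA in each cell cannot be told apart.

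No gene was called between TetLowProg and TetLowReg. Of 5813 genes tested with edgeR's quasi-likelihood test, 0 (0.0%) passed a Benjamini-Hochberg adjusted p under 0.05 with an absolute log2 fold change above 2, and the smallest adjusted p was 0.249. At an unadjusted p under 0.05 stood 54 genes (0.929% of those tested), 25 higher in TetLowProg (0.43%) and 29 lower (0.499%). Of the 25, 21 were found in 2 of the 3 TetLowProg libraries and 4 in all 3. The spread behind this count was wide: the common dispersion was 8.12, and 79.9% of the tested genes were at 0 in TetLowReg 6 and 72.0% in TetLowProg 10, against 7.07% to 9.43% in the other 4 libraries. DESeq2 called 83 genes of 4504 (1.84%) with its default size factors, 23 of 4706 (0.489%) with size factors from positive counts, and 13 of 2685 (0.484%) on the 2 groups alone. Most of these calls rested on part of a group, since 76 of the 83, 14 of the 23 and 9 of the 13 were found in 2 libraries of the higher group. Limma-voom with sample weights called 0, with 354 genes at an unadjusted p under 0.05.

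The smallest p belonged to mt-Cytb, the mitochondrially encoded cytochrome b of respiratory complex III. It had 4840, 401805 and 114171 CPM (counts scaled to a library total of 1000000) in TetLowReg 6, 7 and 8 and 3658, 5194 and 47568 CPM in TetLowProg 9, 10 and 12. TetLowReg 7 and 8 lay above all TetLowProg libraries, but TetLowReg 6 lay below 2 of them, so the groups overlapped. The fitted log2 fold change was -3.97 ± 0.97 (SE, unadjusted p = 4.29e-05, adjusted p = 0.249 with edgeR). In a fit of the 2 groups alone mt-Cytb was the 1 gene called by edgeR, lower in TetLowProg (log2 fold change -3.98, adjusted p = 0.000519). Without TetLowProg 12, edgeR called mt-Cytb (-6.11, adjusted p = 0.0239) and Cd74, the invariant chain of class II presentation (-17.93, adjusted p = 0.000994), both lower in TetLowProg. These 2 genes were singled out after their values were seen.

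Of the 29 lower genes, 4 were found in all 3 TetLowReg libraries, 21 in 2 and 4 in 1. Usp37, a deubiquitinase, was second by p (unadjusted p = 0.00133) with 315327, 19154 and 54602 counts in TetLowReg against 0, 89835 and 53144 in TetLowProg, so the groups overlapped; it was singled out after its values were seen. Next was Wrn, a RecQ helicase, with 0, 472 and 1884 against 1, 0 and 0 (-9.40 ± 3.15, SE, unadjusted p = 0.00283). An unnamed gene (ENSMUSG00000098178) was the most counted gene of TetLowProg 9, with 4711912 counts or 13.0% of that library, against 9728 and 26666 in TetLowProg 10 and 12 and 15, 83678 and 6065 in TetLowReg (4.23 ± 1.81, unadjusted p = 0.0192). Other most counted genes were shared by libraries of both groups. Malat1, a nuclear long non-coding RNA, led both sparse libraries (6.13% of TetLowReg 6 and 5.77% of TetLowProg 10), followed in both by Ptp4a2, a phosphatase (3.03% and 3.31%), whereas mt-Cytb or Cd74 led TetLowReg 7, TetLowReg 8 and TetLowProg 12. Actb, cytoplasmic actin, stood apart and was among the 37 genes higher in every TetLowReg library on library totals described next, with 13551, 13696 and 12909 CPM in TetLowReg and 11073, 10283 and 4783 CPM in TetLowProg (-1.22 ± 1.34, unadjusted p = 0.363).

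Of the 961 genes found (10 counts or more) in all 3 TetLowProg libraries, 158 (16.4%) were higher in each of them than in any TetLowReg library. In the other direction, 37 (5.65%) of the 655 genes found in all 3 TetLowReg libraries were higher in each of them. Genes under 10 counts in a library of the higher group were not counted. That split depends on the scale: with totals scaled by TMM it was 88 against 74, with size factors from positive counts 85 against 91, and with mitochondrially encoded genes left out of the totals 106 against 58. It turned without TetLowReg 6, to 186 against 937, and was 2023 against 52 without TetLowProg 10. Of the 158 genes 3 had an unadjusted p under 0.05 in the fit (Cenatac, Preb and Fbxo45), and of the 36 tested among the 37, 2 had (AI987944 and Phactr2). The 10 genes with the widest gap in log2(CPM + 1) are described for each direction; all 10 kept apart under each of those 4 scales in TetLowProg, and in TetLowReg all but Zfp367 did, which overlapped under size factors from positive counts. Apart from mt-Cytb, each tested gene named had an adjusted p of 1 in the edgeR fit.

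Among the genes higher in TetLowProg, Cenatac and Preb had no count in any TetLowReg library. Cenatac encodes a factor of the minor spliceosome (GRCm39 chr9:44321238-44329866). It had 773, 8396 and 4470 counts in TetLowProg 9, 10 and 12, at least 3661-fold more per gene count than the limit of 3 counts over the TetLowReg group (unadjusted p = 0.0353). Preb, a guanine nucleotide exchange factor for Sar1 at the exit sites of the endoplasmic reticulum (chr5:31108197-31117705), had 509, 6868 and 3357 counts, at least 2881-fold more (unadjusted p = 0.0378). Fbxo45, a substrate receptor of an E3 ubiquitin ligase and 11th by gap, had 232, 205 and 207 counts against 0, at least 173-fold more, with a narrow spread between the 3 libraries. Counting intervals and limits cover counting error only, since these reads carry no molecular identifiers.

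The widest gap belonged to Ubxn1, an adaptor of the p97 segregase that binds ubiquitinated proteins (chr19:8848249-8853229). TetLowReg 6, 7 and 8 held 0, 28 and 2 counts of it, and TetLowProg 9, 10 and 12 held 3374, 10805 and 2806. The fitted log2 fold change was 8.38 ± 5.81 (SE, unadjusted p = 0.149), so the fit placed it within the spread although the groups stood apart. Gabpb1, a subunit of the GA binding protein that drives many genes for mitochondrial proteins, had 0, 139 and 66 counts against 5969, 5478 and 3509 (5.19 ± 5.16). Tnks2, a poly-ADP-ribosyltransferase of the Wnt pathway, had 2, 172 and 85 against 5296, 15067 and 4166 (5.78 ± 5.04). In both genes the 3 TetLowProg libraries all held 3509 counts or more and the highest TetLowReg library held at most 172.

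Sbno2, a transcriptional coregulator, had 0, 2 and 4 counts in TetLowReg and 2875, 423 and 1933 in TetLowProg. Mrps28, a protein of the small mitochondrial ribosomal subunit, had 0, 2 and 0 against 1345, 2615 and 412, a pooled ratio of 1760 with a 95% counting interval from 487 to 14540. Rnf34, an E3 ubiquitin ligase, had 0, 3 and 96 against 6135, 1763 and 2455. The last 2 of the 10 were Arhgap26, a GTPase-activating protein (0, 0 and 22 against 821, 13441 and 3413), and Gabarapl2, an ATG8 family protein of the autophagosome (0, 102 and 56 against 1775, 6319 and 1343). For 9 of these 10 genes TetLowReg 6 had no count at all, and TetLowProg 10 had the highest CPM of the 3 TetLowProg libraries for 8. Fbxo45 stood just outside the 10, with a gap of 2.88 against 3.31 for Gabarapl2.

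**Figure D2:**
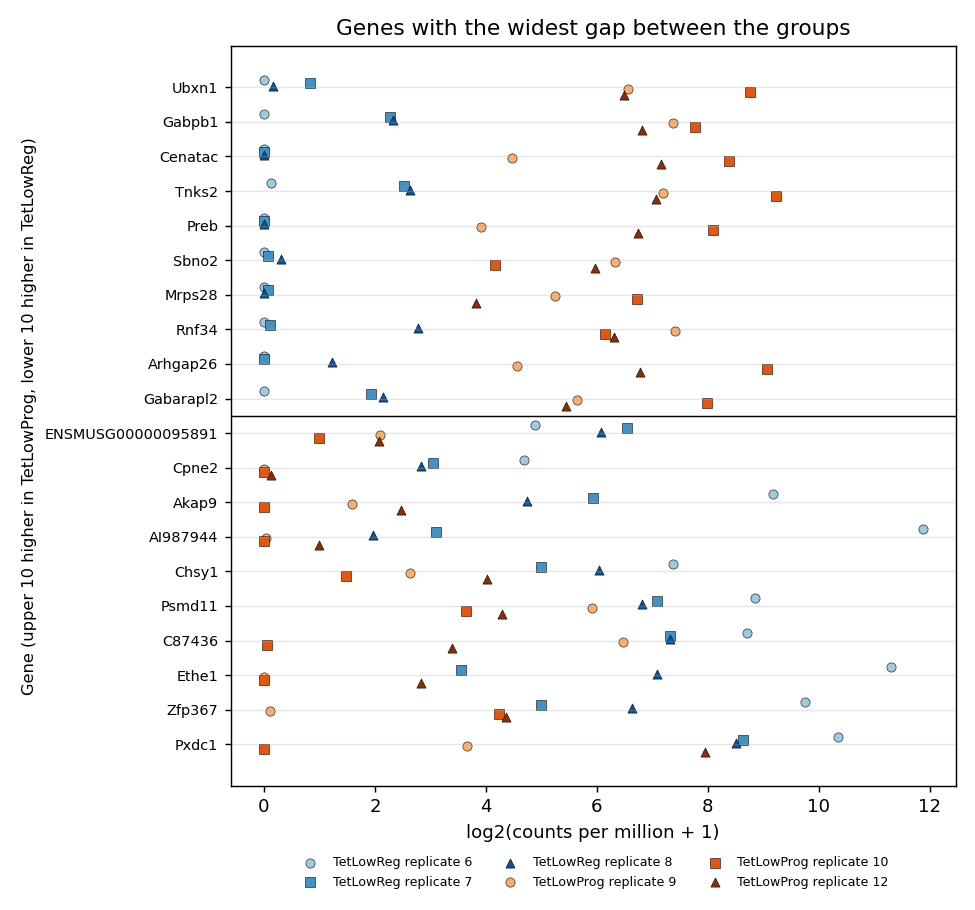
Expression as log2(CPM + 1) (horizontal axis) of the 10 genes per direction with the widest gap between the groups (vertical axis); blue symbols are the 3 TetLowReg libraries and orange symbols the 3 TetLowProg libraries. Cenatac and Preb are at 0 in every TetLowReg library, and gaps are wider among the upper 10 genes (10th gap 3.31) than among the lower 10 (10th gap 0.55).

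Gaps in the other direction were narrower: 3 of the 37 genes had a gap above 1, against 71 of the 158. The widest belonged to a gene the annotation release used here did not name (ENSMUSG00000095891), with 631, 3378 and 1086 counts in TetLowReg 6, 7 and 8 and 118, 25 and 101 in TetLowProg 9, 10 and 12. Cpne2, a calcium-dependent phospholipid binding protein (chr8:95259332-95297161), had 545, 264 and 100 counts against 0, 0 and 3, a pooled ratio of 376 with a 95% counting interval from 128 to 1828. Akap9, a scaffold for protein kinase A at the Golgi and centrosome, had 12654, 2194 and 424 against 73, 0 and 144 (fitted log2 fold change -6.72 ± 5.37, SE). In none of these 3 genes did a TetLowProg library exceed 144 counts.

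The remaining 7 were, like Cpne2 and Akap9, each highest in TetLowReg 6, the sparse library of that group. AI987944 had 82366 counts there and 277 and 48 in TetLowReg 7 and 8, against 1, 0 and 31 in TetLowProg (-11.40 ± 4.86, unadjusted p = 0.0190). Ethe1, the mitochondrial dioxygenase of sulfide oxidation, had 55642, 393 and 2195 against 0, 0 and 194. Zfp367, a zinc finger protein, had 18872, 1119 and 1602 against 3, 450 and 613, and Pxdc1 had 28531, 14445 and 5922 against 422, 0 and 7734. Chsy1, which builds chondroitin sulfate chains, had 3642, 1123 and 1065 against 190, 45 and 481. Psmd11, a lid subunit of the proteasome's regulatory particle, had 10121, 4921 and 1827 against 2149, 290 and 583, and C87436 had 9136, 5758 and 2598 against 3200, 1 and 300. The gaps between the nearest libraries of the groups were 0.97 for Chsy1 and 0.90 for Psmd11. Phactr2, outside the 10, had 102302, 4274 and 1770 against 1, 2 and 3318 and a gap of 0.03.

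The study put 4 genes forward between the low avidity groups, so their group difference is not independent evidence here. Tada2a, an adaptor of the histone acetyltransferase complexes built around GCN5 and PCAF (chr11:83969064-84020476), had 1362, 25889 and 0 counts in TetLowProg and 0, 0 and 2 in TetLowReg. Cnpy2, a chaperone-like protein of the endoplasmic reticulum (chr10:128158158-128164230), had 0, 26490 and 5808 counts against 0 in every TetLowReg library. Each was therefore high in TetLowProg 10 and 1 other library and absent from the remaining one. In the opposite direction, Bckdhb, the E1 beta subunit of the branched chain ketoacid dehydrogenase (chr9:83807130-84011081), had 43939, 0 and 1267 counts in TetLowReg and 0 in TetLowProg. Igkv1-135, an immunoglobulin kappa V gene (chr6:67586697-67587492), had 0, 3912 and 179 counts in TetLowReg and 0 in TetLowProg. None of the 4 was kept by the edgeR filter on low counts, and all 4 overlapped between the groups. DESeq2 with default size factors called Cnpy2 and Tada2a higher (adjusted p = 1.72e-26 and 0.0479) and Igkv1-135 lower (1.44e-22) in TetLowProg. On the 2 groups alone it called Cnpy2 and Igkv1-135, and with size factors from positive counts none of the 4.

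Igkv1-135 counts stood beside other immunoglobulin counts in the same libraries. All Igkv genes together had 0, 34825 and 10521 counts in TetLowReg 6, 7 and 8 and 0, 1 and 16259 in TetLowProg 9, 10 and 12. The constant region Igkc was counted in the same 3 libraries, with 2, 67892 and 21841 against 0, 1 and 38959, and so did the B cell genes Ms4a1 (0, 6626 and 1797 against 0, 0 and 7457) and Cd79b (0, 8721 and 7635 against 0, 0 and 22321). TetLowProg 12 thus held the most Cd79b counts and 37 Igkv genes, but none of Igkv1-135. Igkv genes are near copies of each other, and reads that fit several genes were left out of the counts, so the value of any 1 of them is uncertain.

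Genes for the proteins used to sort and stain the cells differed widely between libraries of the same group. Cd8b1, the beta chain of CD8, had 8, 1250 and 4006 counts in TetLowReg 6, 7 and 8 and 39376, 75010 and 16482 in TetLowProg 9, 10 and 12, so the groups stood apart, with a fitted log2 fold change of 3.56 ± 2.65 (SE, unadjusted p = 0.179). Cd3e, a signaling chain of the receptor complex, stood apart too, with 0, 757 and 230 counts against 14452, 11486 and 1394 (3.81 ± 4.50, unadjusted p = 0.398). Cd8a, the alpha chain, overlapped, with 47022, 2419 and 3680 against 24040, 0 and 3755. Cd8a and Cd8b1 thus ran in opposite order in the sparse libraries: TetLowReg 6 held Cd8a and nearly no Cd8b1, and TetLowProg 10 held Cd8b1 and no Cd8a. Cd44, the activation marker of the gate, had 0, 2 and 1421 counts against 1039, 0 and 697.

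Pdcd1, which encodes the target of the therapy, had 8322, 0 and 9258 counts in TetLowProg and 0, 4 and 1 in TetLowReg. It was high in both TetLowProg libraries rich in genes and near 0 in both TetLowReg libraries rich in genes, but its counts were too low in the other libraries for the edgeR filter, so it was not tested. Tcf7, the gene for TCF-1, had 18867, 27422 and 29432 counts in TetLowProg and 0, 255 and 8892 in TetLowReg, and TetLowReg 8 overlapped with TetLowProg 9 by a narrow margin of 0.06 in log2(CPM + 1) (fitted log2 fold change 1.82 ± 3.10, unadjusted p = 0.556). The effector genes were found in single libraries or in both groups. Gzmb, the cytotoxic protease granzyme B, had 0, 857 and 2898 against 3063, 0 and 1129, and Ifng, the cytokine interferon gamma, 0, 2349 and 0 against 11244, 0 and 0. Of the transcription factors of effector fate, Tbx21 was counted only in TetLowProg 9 (4499) and Eomes only in TetLowReg 8 (64) and TetLowProg 9 (1). Entpd1, which encodes CD39, had 2259 counts in TetLowReg 7, 2 in TetLowReg 8 and 0 elsewhere.

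**Figure D3:**
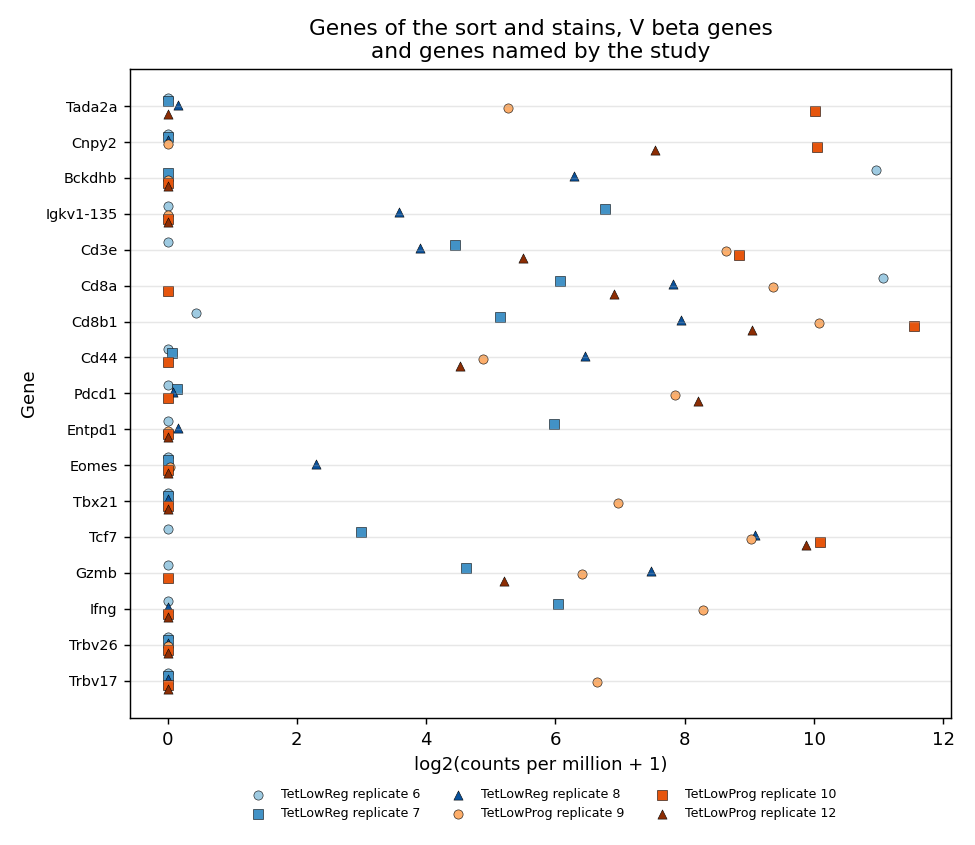
Expression as log2(CPM + 1) (horizontal axis) of the genes of the sort and stains, 2 V beta genes and the 4 genes named by the study (vertical axis); blue symbols are the 3 TetLowReg libraries and orange symbols the 3 TetLowProg libraries. Only Cd3e and Cd8b1 have all 3 TetLowProg libraries above all 3 TetLowReg libraries, and Trbv26 is at 0 in all 6.

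Gene lists are given by counts and medians beside those of all tested genes, whose median log2 fold change was 0.35 with TMM factors, 1.23 on library totals and -0.09 with size factors from positive counts, so list medians are read relative to it. In the edgeR fit above no member of the 28 lists was called. DESeq2 called 7 of 428 members with default size factors (Cdk2, Cnpy2, Echs1, Emg1, Imp3, Tada2a and Taf12), where it called 1.84% of all genes. It called 3 of 388 with size factors from positive counts (Pdk1, Taf12 and Ubash3a; 0.489% of all genes) and 2 of 326 on the 2 groups alone (Cdk2 and Cnpy2; 0.484% of all genes), and all but Pdk1 were higher in TetLowProg. Of their 521 tested members 4 had an unadjusted p under 0.05, where 0.929% of all tested genes did: Ints9 and Taf12 higher in TetLowProg, Zbtb46 and mt-Cytb lower. The summed share of gene counts did not overlap between the groups for 7 lists, and all 7 were higher in TetLowProg on library totals; no p is given, since the members were chosen with results of these data known. On TMM-scaled totals 1 of the 7, exhaustion, stayed apart. Without mitochondrially encoded genes in the totals, exhaustion, non-coding RNA metabolism and interferon-stimulated genes did, and with size factors from positive counts none did. On that last scale mitochondrially encoded genes and DNA repair genes did not overlap in the other direction, with TetLowReg higher.

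TCR signaling genes, which carry the signal from the receptor to transcription, took 0.171%, 0.214% and 0.184% of gene counts in TetLowReg 6, 7 and 8 and 1.56%, 0.321% and 0.530% in TetLowProg 9, 10 and 12. Of 28 members 26 were tested, 21 with a positive and 5 with a negative fold change, 0 at an unadjusted p under 0.05, with a median log2 fold change of 1.98. Of the 5 members found in all 3 TetLowProg libraries, 4 were higher there than in every TetLowReg library, among them Lat, Fyn and Prkcq, where 16.4% of all genes found there did so. Lat, the adaptor that Zap70 phosphorylates, had 0, 6118 and 1881 counts against 40039, 61000 and 19343 (3.10 ± 2.91, SE, unadjusted p = 0.287), and Fyn, a Src family kinase, 0, 554 and 270 against 7885, 905 and 2133. Junb, an AP-1 subunit, had 160370 counts in TetLowProg 9 and at most 312 in any other library. Lck, the kinase bound to CD8, overlapped, with 0, 15469 and 3782 against 66200, 2 and 22199. Without TetLowProg 9 the list's median was 0.20, and without TetLowReg 7 it was 4.13. The median of all tested genes moved with these libraries, to -0.63 and 1.75, and relative to it the list lay between 0.83 and 2.68 higher over 14 fits.

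The T cell identity list overlapped in share (2.16%, 0.391% and 0.694% against 1.32%, 1.72% and 0.92%), with 22 of 22 members tested and a median of 0.65, which was -0.03 without TetLowProg 9 and 1.34 without TetLowReg 8. Relative to all tested genes it ran from -0.62 to 1.06 over 14 fits. Its most counted member, Ms4a4b, a membrane protein of T cells, had 61035, 20295 and 42227 counts against 35365, 114724 and 73578. Cd28, the costimulatory receptor, had 189306 counts in TetLowReg 6, 9742 and 14215 in TetLowReg 7 and 8, and 17984, 66923 and 14397 in TetLowProg. Genes of the progenitor and memory state had shares of 0.918%, 0.215% and 0.478% against 0.699%, 0.677% and 0.609%, with 13 of 16 tested members positive and a median of 1.21, which was 0.73 without TetLowProg 9 and 3.58 without TetLowReg 8. Relative to all tested genes it ran from -0.26 to 2.15. Of the 6 members found in all 3 TetLowProg libraries 1 stood apart, where 16.4% of all genes found there did. This was Ccr7, the receptor that guides T cells to lymph nodes, with 1, 20324 and 6337 counts against 63999, 38413 and 46920 (1.5 ± 2.94, unadjusted p = 0.609). Satb1, a chromatin organizer of T cells, overlapped, with 12931, 25990 and 14664 against 23875, 15090 and 60552.

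Exhaustion genes took 0.00441%, 0.0391% and 0.0551% of gene counts in TetLowReg and 0.129%, 0.219% and 0.0845% in TetLowProg, with 9 of 20 members tested, 5 positive and 4 negative, and a median of 0.66, which was -0.94 without TetLowProg 9 and 3.93 without TetLowReg 7. Relative to all tested genes the median ran from -0.31 to 2.22 over 14 fits. Of the 2 members found in all 3 TetLowProg libraries 1 stood apart, where 16.4% of all genes found there did. This was Tox, the transcription factor that maintains the exhausted state, with 0, 54 and 594 counts against 1491, 47984 and 4129 and a gap of 0.18. TetLowProg 10, where only 2 members were found, owed its share to Tox and Nr4a2 (7061 counts). Nr4a2, an orphan receptor induced by receptor signals, had 970, 3193 and 4702 counts against 6288 and 3519 in the other two TetLowProg libraries. The inhibitory receptors did not run together: Havcr2, which encodes TIM-3, was counted only in TetLowReg 7 (2721), Lag3 in TetLowReg 7 (2306), TetLowProg 9 (2452) and TetLowReg 8 (14), and Tigit had 0, 36 and 2409 against 3929, 0 and 2404.

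Cytotoxicity and effector cytokine genes made up 9.07e-06%, 0.162% and 0.155% in TetLowReg and 0.249%, 0.255% and 0.219% in TetLowProg. TetLowReg 6 held none of the 23 members at 10 counts or more, while TetLowReg 7 and 8 held 13 and 7 and TetLowProg 9, 10 and 12 held 14, 2 and 10. Of the 7 members tested 3 were positive and 4 negative. The median was -0.37 on the TMM scale and 0.47 on library totals, where all tested genes had 0.35 and 1.23. Without TetLowProg 9 the median was -2.24 and without TetLowReg 7 it was 1.98, where all tested genes had -0.63 and 1.75. Relative to all tested genes it ran from -1.61 to 1.46 over 14 fits. Nkg7, a granule protein of killer cells, was the most counted, with 1, 16594 and 9782 counts against 18238, 63210 and 28550. Srgn, the proteoglycan that packs granules, had 0, 21438 and 8792 against 18348, 993 and 29970. Ccl4, a chemokine of activated killer cells, had 0, 2696 and 52 against 13474, 0 and 389. Prf1, the pore-forming protein perforin, was counted only in TetLowProg 9 (2738) and 12 (1392), and Gzmk only in TetLowReg 8 (1112).

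**Figure D4:**
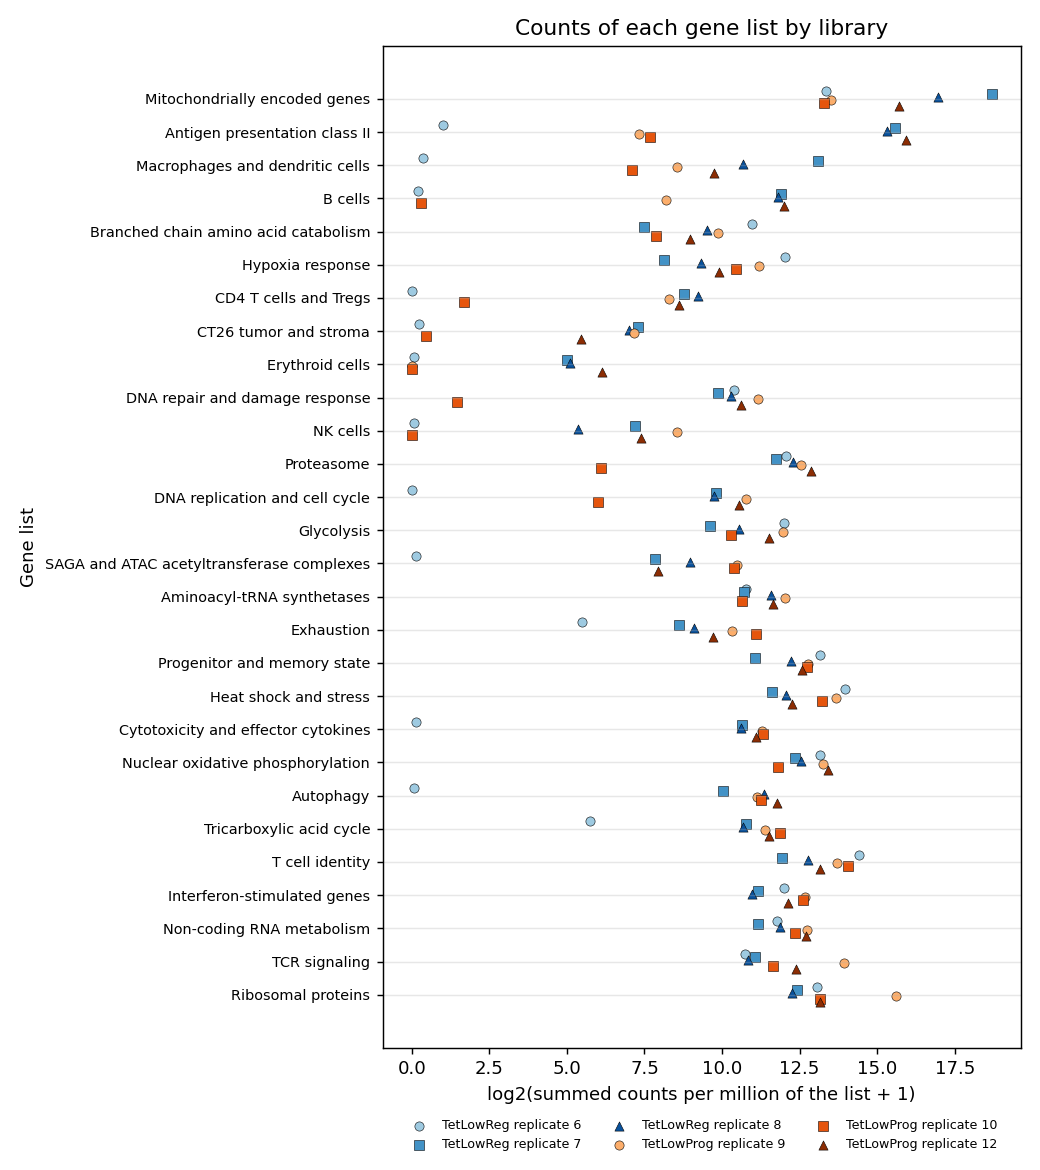
Summed counts of each of the 28 gene lists as log2(summed CPM + 1) (horizontal axis), lists ordered by the difference in mean share (vertical axis); blue symbols are the 3 TetLowReg libraries and orange symbols the 3 TetLowProg libraries. Mitochondrially encoded genes reach 42.2% of TetLowReg 7, and ribosomal protein genes 4.94% of TetLowProg 9.

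Mitochondrially encoded genes of the list took 1.05%, 42.2% and 12.8% of gene counts in TetLowReg and 1.18%, 0.999% and 5.38% in TetLowProg. All 7 tested members had a negative fold change, with a median of -1.95. The mean share was 18.7% ± 21.2 (SD, n = 3) in TetLowReg and 2.52% ± 2.48 in TetLowProg, and the groups overlapped, with TetLowReg 6 below 2 of the TetLowProg libraries. Besides mt-Cytb, mt-Co1, a catalytic subunit of complex IV, had 43818, 337414 and 48878 counts against 189426, 4211 and 67369. Of the 6 members found in all 3 TetLowReg libraries 1 stood apart on library totals, where 5.65% of all genes found there did. This was mt-Nd4, a subunit of complex I, with 54248, 160049 and 65778 against 17529, 52677 and 46575. Outside the list, mt-Rnr1, the mitochondrial small ribosomal RNA, stood apart too, with 25903, 218343 and 31364 counts against 16735, 20819 and 30491. Of the nuclear genes of oxidative phosphorylation 67 of 75 were tested, 29 positive and 38 negative, with a median of -0.18. Relative to all tested genes the median was -0.52, and it lay above them in 3 of 14 fits. Of the 11 found in all 3 TetLowProg libraries, 5 stood higher there (Cox6a1, Ndufa2, Ndufa7, Ndufb11 and Ndufb6), against 16.4% of all genes found there. Uqcrc1, a core subunit of complex III, had 0, 16878 and 20454 counts against 6694, 0 and 61406.

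Tricarboxylic acid cycle genes made up 0.00525%, 0.175% and 0.164% in TetLowReg and 0.265%, 0.372% and 0.291% in TetLowProg, with 17 of 23 members tested, 11 positive, and a median of 1.10. Of the 2 members found in all 3 TetLowProg libraries 1 stood apart, where 16.4% of all genes found there did. This was Mdh2, the mitochondrial malate dehydrogenase, with 0, 9747 and 4503 counts against 11353, 46734 and 31139. Idh3g, a regulatory subunit of isocitrate dehydrogenase, had 0, 2418 and 2976 against 5078, 46708 and 2194. The 2 members found in TetLowProg 10, Mdh2 and Idh3g, thus carried its share. Without the sparse libraries the median was -0.07, against 0.04 for all tested genes. The 2 TetLowProg libraries left were both higher for 9 members and both lower for 1 of the 22 tested. Over all genes 41.7% of those found in both were higher and 21.5% of those found in both TetLowReg libraries were lower. Members are counted of those tested and all genes of those found, so these shares have different bases.

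Glycolysis genes overlapped in share (0.405%, 0.0784% and 0.148% against 0.399%, 0.125% and 0.294%). Of 20 members 14 were tested, with a median of 0.67, which was -0.47 without TetLowProg 9 and 3.07 without TetLowReg 8. Relative to all tested genes it ran from -0.73 to 1.65 over 14 fits. Of the 4 members found in all 3 TetLowProg libraries 1 stood apart, where 16.4% of all genes found there did. This was Eno1, the glycolytic enolase, with 0, 9265 and 1703 counts against 11591, 18882 and 13558. Ldha, lactate dehydrogenase A, had 74652 counts in TetLowReg 6 and 822 and 505 in TetLowReg 7 and 8, against 41876, 6647 and 1982. It also led the hypoxia list, whose shares were 0.416%, 0.0277% and 0.0642% against 0.235%, 0.141% and 0.095%, with 6 positive and 7 negative of 13 tested members. Branched chain amino acid catabolism, the pathway of Bckdhb, had shares of 0.199%, 0.0178% and 0.0735% against 0.0931%, 0.0235% and 0.0496%, with 6 positive and 5 negative. Most of the 0.199% was Bckdhb itself. Echs1, the mitochondrial enoyl-CoA hydratase, ran the other way, with 0, 4 and 0 counts in TetLowReg and 1895, 994 and 216 in TetLowProg. Dld, a subunit that the ketoacid dehydrogenases share, had 0, 2805 and 5257 against 5634, 0 and 870.

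Ribosomal protein genes were the list with the most tested members. Of 79 members 79 were tested, 69 with a positive and 10 with a negative fold change, 0 at an unadjusted p under 0.05. The median was 1.66, which was 0.07 without TetLowProg 9 and 2.92 without TetLowReg 7. Relative to all tested genes it ran from 0.54 to 2.23 over 14 fits. The share was 0.858%, 0.543% and 0.486% in TetLowReg and 4.94%, 0.916% and 0.911% in TetLowProg, so TetLowProg 9 lay far above and the other two just above the groups' border. Of the 37 members found in all 3 TetLowProg libraries, 10 stood higher there than in every TetLowReg library, against 16.4% of all genes found there, among them Rpl10 (0, 524 and 989 counts against 18713, 20267 and 4889). Rps3, the most counted member, did not, with 43972, 13441 and 4889 against 72831, 0 and 6544. Ribosomal protein genes have many processed pseudogenes, and reads shared with them were left out of the counts.

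Genes of non-coding RNA metabolism, which process transfer, ribosomal and small nuclear RNA, took 0.347%, 0.228% and 0.372% in TetLowReg and 0.691%, 0.522% and 0.671% in TetLowProg. Of 95 members 51 were tested, 35 positive and 16 negative, 1 higher at an unadjusted p under 0.05 (Ints9). The median was 0.85, which was 3.68 without TetLowReg 7 and 3.75 without TetLowReg 8. Relative to all tested genes it ran from 0.46 to 2.32 over 14 fits. Of the 9 found in all 3 TetLowProg libraries 3 stood apart (Dkc1, Ints6 and Trmt112), against 16.4% of all genes found there. Dkc1, the pseudouridine synthase of box H/ACA particles, had 1, 1326 and 1889 counts against 8464, 31574 and 4376. Ncl, the nucleolar protein nucleolin, had 1, 25296 and 13022 against 22716, 86 and 43117, and Trmt10c, a subunit of mitochondrial RNase P, had 67730, 6 and 1757 against 1854, 1 and 2752. Aminoacyl-tRNA synthetases overlapped, with 12 positive and 11 negative of 23 tested and a median of 0.16.

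The SAGA and ATAC acetyltransferase complexes, which hold Tada2a, had shares of 9.07e-06%, 0.0226% and 0.05% against 0.143%, 0.133% and 0.0242%. Of 27 members 14 were tested, 7 positive and 7 negative, with a median of -0.03, and Taf12 was higher at an unadjusted p under 0.05, with 1722, 0 and 1973 counts in TetLowProg and 0 in TetLowReg. Of the 3 members found in TetLowProg 10, Tada2a supplied 25889 counts and Usp22, the deubiquitinase of SAGA, 4196. Usp22 had 0, 508 and 439 counts in TetLowReg and 2683 and 381 in TetLowProg 9 and 12. Proteasome genes overlapped (0.427%, 0.345% and 0.500% against 0.602%, 0.00677% and 0.743%), with a median of 0.18. Of the 4 found in all 3 TetLowReg libraries 1, Psmd11, stood higher there, where 5.65% of all genes found there did. Of the 3 found in all 3 TetLowProg libraries 0 stood higher there.

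Interferon-stimulated genes took 0.411%, 0.230% and 0.198% in TetLowReg and 0.659%, 0.627% and 0.450% in TetLowProg, with 19 of 36 members tested, 14 positive and 5 negative, and a median of 1.88, which was -0.42 without TetLowProg 9 and 3.78 without TetLowReg 7. Relative to all tested genes it ran from 0.22 to 2.58 over 14 fits. No member stood apart, of 4 found in all 3 TetLowProg libraries and 2 found in all 3 TetLowReg libraries. Over all genes so found, 16.4% and 5.65% did. Gbp4, a guanylate binding protein of cell-autonomous defense, had 1, 6469 and 3795 counts against 27782, 41092 and 2264, and Parp9 had 0, 3784 and 0 against 8925, 31194 and 1036.

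Cell cycle genes (median 0.45, 13 of 30 tested), DNA repair genes (median 0.95, 16 of 34), autophagy genes (median 0.17, 21 of 27) and heat shock genes (median 1.01, 16 of 20) overlapped in share. The DNA repair median was -0.12 without the sparse libraries, and relative to all tested genes it ran from -4.82 to 1.43 over 14 fits. Top2a, the topoisomerase of dividing cells, had 0, 11868 and 237 counts against 1, 1 and 2528, and Pcna, the replication clamp, 0, 4544 and 2143 against 8371, 1111 and 5944. Cdkn1a, which encodes the cell cycle inhibitor p21, had 2, 19713 and 8536 against 3393, 0 and 19985. Map1lc3b, the LC3B protein of the autophagosome, had 0, 11344 and 10391 against 8544, 48035 and 46994, and Hspa8, the constitutive HSP70 chaperone, had 143718, 37383 and 33582 against 53109, 84268 and 43896. In 4 of these 5 genes at least 1 of the sparse libraries held 2 counts or fewer.

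**Figure D5:**
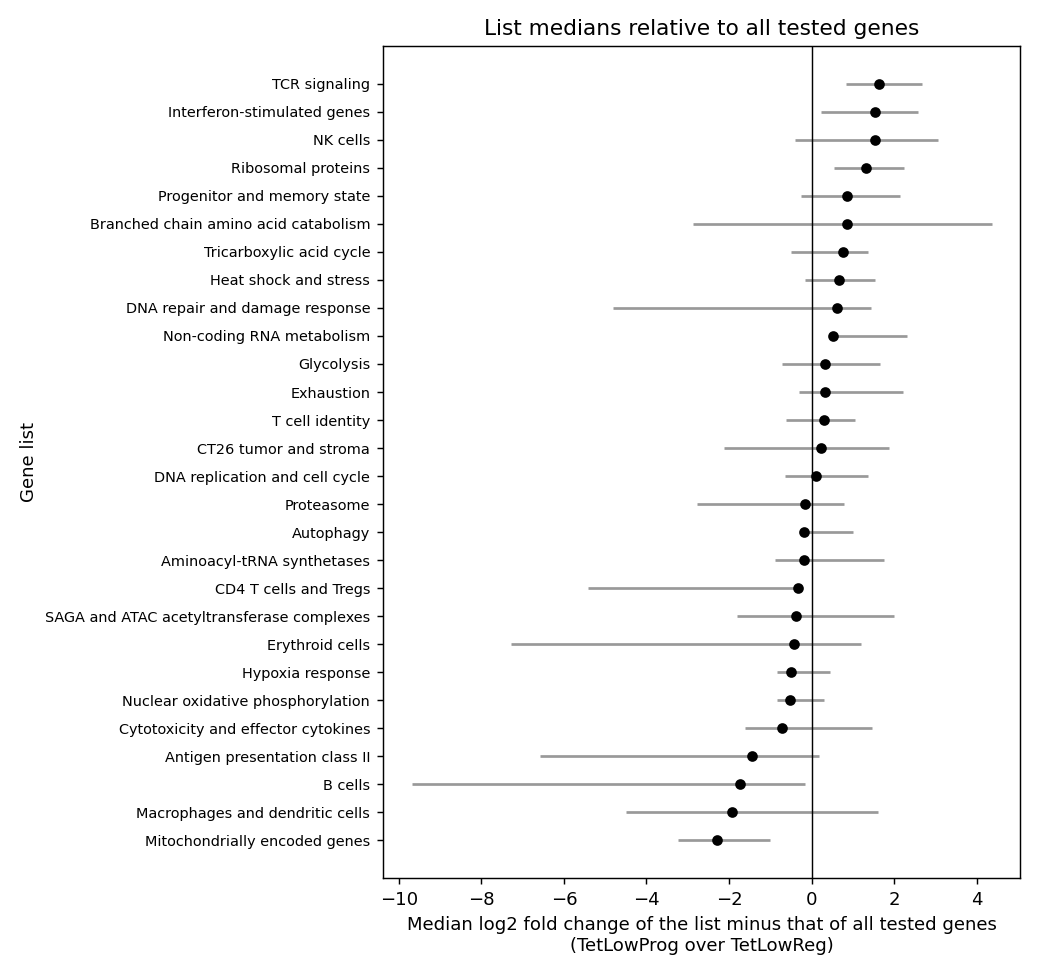
Median log2 fold change of the tested members of each gene list minus the median of all tested genes (horizontal axis, TetLowProg over TetLowReg), one list per line (vertical axis); points are the TMM-scaled edgeR fit with all libraries and lines run from the lowest to the highest value over up to 14 edgeR fits. The lines of TCR signaling, ribosomal proteins, interferon-stimulated genes and non-coding RNA metabolism lie above 0 throughout, and those of B cells, CD4 T cells and Tregs, and mitochondrially encoded genes below 0 throughout.

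Summed counts of B cell and class II genes were high in TetLowReg 7, TetLowReg 8 and TetLowProg 12 and low in the other 3 libraries, but Ighm, the IgM constant region, had 8777 counts in TetLowProg 9 beside 0, 11274 and 4491 in TetLowReg and 0 and 9773 in TetLowProg 10 and 12. Class II antigen presentation took 9.98e-05%, 4.86% and 4.04% of gene counts in TetLowReg and 0.0159%, 0.0205% and 6.19% in TetLowProg, with 2 positive and 8 negative of 10 tested members. Cd74 had 19, 1475807 and 562795 counts against 1, 3 and 1627251, so TetLowProg 12 held the highest count of the 6 libraries and TetLowProg 9 the lowest. H2-Aa, a chain of the class II molecule, was high in the same 3 libraries, with 1, 155460 and 46134 against 151, 0 and 125217. B cell genes (median -1.39, 13 of 17 members tested, 1 positive and 12 negative) had shares of 0.380%, 0.358% and 0.408% in TetLowReg 7, TetLowReg 8 and TetLowProg 12 and at most 0.0290% in the other 3. Their medians below all tested genes thus came with 2 of 3 TetLowReg libraries and 1 of 3 TetLowProg libraries holding counts of these genes.

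Macrophage and dendritic cell genes took 2.72e-05%, 0.869% and 0.164% in TetLowReg and 0.0373%, 0.0136% and 0.0858% in TetLowProg, with Lyz2, the myeloid lysozyme, at 5, 299515 and 19392 counts against 0, 0 and 18079. Of 24 members 7 were tested, 3 positive and 4 negative, with a median of -1.57, which was 3.11 without TetLowReg 7. Relative to all tested genes it ran from -4.50 to 1.60 over 14 fits. Zbtb46, a transcription factor of classical dendritic cells, had 0, 964 and 840 counts against 0 in all 3 (at least 747-fold more in TetLowReg, unadjusted p = 0.0444). Ly6c2 was the list's 1 member found in all 3 TetLowProg libraries and stood apart, where 16.4% of all genes found there did. It ran the other way, with 1, 1946 and 566 against 12147, 3298 and 2129, and CD8+ T cells express it too. Siglech, a dendritic marker, had 0, 111 and 0 counts against 807, 0 and 153. Genes of CD4 T cells and Tregs had 4 of 11 members tested (median 0.02), those of NK cells 3 of 10 (median 1.88), of erythroid cells 3 of 9 (median -0.08) and of CT26 tumor and stroma 3 of 19 (median 0.59). The NK median was -0.19 without TetLowProg 9 and 3.56 without TetLowReg 7, where all tested genes had -0.63 and 1.75. Without the sparse libraries the median was -2.04 for CD4 T cells and Tregs and -1.59 for tumor and stroma, where all tested genes had 0.04. The epithelial keratins Krt8 and Krt18 were at 0 in all 6 libraries, while the epithelial Epcam had 0, 106 and 3 counts against 2, 0 and 0, the collagen Col1a1 0, 99 and 19 against 0 in all 3, Col3a1 24 in TetLowReg 8 only, and the endothelial Pecam1, also made by T cells, 4, 105 and 506 against 3038, 8 and 295. Foxp3, the Treg factor, had 123 and 585 counts in TetLowReg 7 and 8 and 0 in the other 4 libraries. Other markers of CD4 T cells and Tregs did not all follow it. Cd4 had 0, 2020 and 42 counts against 0, 0 and 2, Il2ra 0, 4 and 1 against 0, 0 and 945, and Zbtb7b 0, 82 and 1 against 0, 55 and 0.

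The T cell receptor V genes were few in the sparse libraries, where TetLowReg 6 held 1 TRBV gene at 10 counts or more and TetLowProg 10 none, against 2 to 16 in the other 4. V exons of the V beta gene with the most counts in each library, and of the V alpha gene that led in 5 of the 6, are printed from the reference genome GRCm39, of the C57BL/6J strain, with annotation from GENCODE, in lower case with capitals from the last cysteine codon of the exon, where the CDR3 begins, to its end. Trbv17 lies at chr6:41140196-41140490 (plus strand), Trbv31 at chr6:41534627-41534918 (minus strand), Trbv13-2 at chr6:41098473-41098766 and Trbv13-3 at chr6:41107226-41107519 (both plus strand), and Trav3-3 at chr14:53903673-53903963 (plus strand).
Trbv17: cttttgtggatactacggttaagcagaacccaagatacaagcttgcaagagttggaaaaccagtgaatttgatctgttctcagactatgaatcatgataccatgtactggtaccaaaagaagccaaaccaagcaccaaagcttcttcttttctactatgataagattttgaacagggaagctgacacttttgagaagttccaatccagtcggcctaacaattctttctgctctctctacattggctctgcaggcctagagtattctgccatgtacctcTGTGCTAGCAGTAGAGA
Trbv31: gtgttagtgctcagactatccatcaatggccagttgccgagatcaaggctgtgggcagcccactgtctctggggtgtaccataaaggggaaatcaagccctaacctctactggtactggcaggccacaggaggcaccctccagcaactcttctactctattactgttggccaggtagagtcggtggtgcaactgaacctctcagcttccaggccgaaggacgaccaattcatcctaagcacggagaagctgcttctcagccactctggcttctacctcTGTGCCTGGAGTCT
Trbv13-2: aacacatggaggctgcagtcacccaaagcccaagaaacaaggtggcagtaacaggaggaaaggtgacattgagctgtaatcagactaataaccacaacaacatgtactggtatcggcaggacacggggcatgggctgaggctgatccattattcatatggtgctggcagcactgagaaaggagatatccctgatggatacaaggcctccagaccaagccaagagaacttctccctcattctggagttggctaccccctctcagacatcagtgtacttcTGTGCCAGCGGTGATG
Trbv13-3: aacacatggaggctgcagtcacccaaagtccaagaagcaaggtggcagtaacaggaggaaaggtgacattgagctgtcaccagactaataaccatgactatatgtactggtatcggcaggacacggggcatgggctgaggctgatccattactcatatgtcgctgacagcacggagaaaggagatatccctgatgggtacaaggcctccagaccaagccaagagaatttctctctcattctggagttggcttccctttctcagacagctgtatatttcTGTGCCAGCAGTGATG
Trav3-3: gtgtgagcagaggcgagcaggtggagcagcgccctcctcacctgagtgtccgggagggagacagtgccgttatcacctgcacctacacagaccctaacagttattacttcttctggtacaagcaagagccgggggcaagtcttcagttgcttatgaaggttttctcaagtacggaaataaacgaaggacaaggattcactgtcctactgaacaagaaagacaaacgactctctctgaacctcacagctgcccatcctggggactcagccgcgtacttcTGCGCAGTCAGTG

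The exons of Trbv13-2 and Trbv13-3 were the same at 270 of 294 positions, and reads from stretches they share would fit both genes. In TetLowReg 6 all 24130 TRBV counts fell on Trbv31 (100%, 95% exact interval from 99.98%), and in TetLowProg 10 no TRBV gene had a count, although the constant gene Trbc2 had 11474. In TetLowReg 7, with only 194 TRBV counts, the leading gene was Trbv13-3 (108 counts, 55.7%, interval 48.4% to 62.8%). Trbv13-2 led in TetLowReg 8 (40.4%, interval 38.2% to 42.6%) and in TetLowProg 12 (35.5%, interval 34.1% to 37.0%). TetLowProg 9 held 16 TRBV genes at 10 counts or more, led by Trbv17 with 3593 of 22233 counts (16.2%, interval 15.7% to 16.7%).

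Trbv17 encodes V beta 9 and Trbv26 encodes V beta 3, which are among the V beta chains that the study stained for by antibody. Trbv26 had 0 counts in all 6 libraries, which allows a share of up to 0.0124%, 1.55% and 0.154% of the TRBV counts in TetLowReg 6, 7 and 8 and of up to 0.0135% and 0.0708% in TetLowProg 9 and 12. Trbv17 was counted in TetLowProg 9 only. The mean share of Trbv17 was 8.08 percentage points higher in the 2 TetLowProg libraries with TRBV counts than in the 3 TetLowReg libraries, and 0 without TetLowProg 9; with 1 library above 0, a permutation of the libraries gives the same p whatever the size, so none is given. Among V alpha genes, Trav3-3 took 76.2%, 25.4% and 16.1% of the TRAV counts in TetLowReg 6, 7 and 8 and 18.1%, 95.5% and 31.9% in TetLowProg 9, 10 and 12. It was the leading V alpha gene in all but TetLowReg 8, where Trav18 had 22.7%. Trav3-3 has near copies in the V alpha cluster, so its share is uncertain.

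Without the sparse libraries, TetLowReg 6 and TetLowProg 10, the comparison rested on 2 libraries a group. Of 8521 genes tested, edgeR again called 0 (smallest adjusted p = 0.605), with 156 genes higher (1.83%) and 527 lower (6.18%) in TetLowProg at an unadjusted p under 0.05. Of the 5070 genes found in both TetLowProg libraries left, 2112 were higher there than in both TetLowReg libraries, and of the 4620 found in both TetLowReg libraries left, 991 were higher in the other direction. The 10 genes with the smallest p and at least 100 counts in both libraries of the higher group are described for each direction, with the values of the sparse libraries beside them.

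Higher in TetLowProg were Mon1a, Cdk5rap3, Zfp146, Klhl11, Mpzl3, Zfand2b, Rnf139, Oard1, Arhgap1 and Btbd6, with unadjusted p from 0.0323 to 0.0352. Of these 9 had 0 counts in all 3 TetLowReg libraries, and Arhgap1, a GTPase-activating protein, had 1 count in TetLowReg 6. Rnf139, an E3 ubiquitin ligase of the endoplasmic reticulum, had 2711 and 7833 counts in TetLowProg 9 and 12, Mon1a, which acts in endosome maturation, 2801 and 6723, and Cdk5rap3, part of the UFM1 ligase complex, 3659 and 6442. All 10 were at 0 in TetLowProg 10, so for none of them did the 3 TetLowProg libraries move together.

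Higher in TetLowReg were Lyz2, Wrn, Ighg1, Postn, mt-Cytb, Clpb, Unc119, Il12b, Snora43 and Tubg1, with unadjusted p from 0.0019 to 0.0258. Wrn, the RecQ helicase mutated in Werner syndrome, had 472 and 1884 counts in TetLowReg 7 and 8, 0 in TetLowReg 6 and a single count in TetLowProg 9 (log2 fold change -10.02 without the sparse libraries). Ighg1, the constant region of IgG1, had 10077 and 924 counts, Postn, the matrix protein periostin of fibroblasts, 6492 and 1088, and Il12b, the interleukin-12 subunit that dendritic cells and macrophages make, 2615 and 1504. These 3 genes, like Lyz2, are known mainly from plasma cells, fibroblasts and myeloid cells, and they were at 0 in TetLowProg except for Lyz2, which had 18079 counts in TetLowProg 12. Tubg1, gamma tubulin, had 2368 and 1899 counts against 1 in TetLowProg 10 and 0 in the other two, and Clpb, a mitochondrial disaggregase, 7847 and 215 against 0.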

How the data were processed

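Gene counts of 9 Smart-seq2 libraries were used as deposited. Per the labels and the study's methods, the authors aligned reads with STAR (2.7.6a) to GRCm39 and counted uniquely mapped reads per gene (featureCounts is also named); the unstranded count column was taken, so overlapping antisense genes cannot be told apart. The 4 summary lines per library were left out. Of 32976 gene identifiers, 28645 were named by the reference annotation used here (GENCODE M39).

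Counts of the 3 groups were fitted in 1 model with edgeR (4.0.16; TMM, filterByExpr, quasi-likelihood F test, prior count 2), and a gene was called where its p, adjusted by Benjamini and Hochberg, was under 0.05 and its log2 fold change was above 2 in size. The scripts were tested on simulated data. Alternatives used DESeq2 (1.42.0), limma-voom (3.58.1), other filters and scalings, and each library left out. CPM were computed from library totals, and gaps on log2(CPM + 1). Intervals of shares are Clopper-Pearson at 95%, and a count of 0 was given a limit of 3 counts. Named genes were the stain and study panel, the 3 most counted genes per library, up to 4 most counted members per list, and the 10 per direction with the widest gap or, without the sparse libraries, the smallest p; separated members of lists were added after their values were seen. Members and lists were chosen with earlier results of these data known. Some members of the lists are not reported here.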

Additional observations from a re-analysis of the deposited data

How the results depend on the processing

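The count of called genes was 0 with edgeR under the other filters and scalings and with limma-voom, 83 and 23 with DESeq2 under default and positive-count size factors, 13 with DESeq2 and 1 with edgeR on the 2 groups alone, and 0 to 2 with each library left out in turn. The difference in genes found changed sign at a minimum of 100 counts (968) and ran from -2398 to 1922 with a library left out. No paired analysis was made, since each tumor was assigned to 1 group by its response.

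Of 500 recomputed log2 fold changes, 485 kept their direction and their side of the threshold, 11 passed it and 4 changed sign: Cd8a without both sparse libraries (0.34), Cd44 with limma-voom (1.63), and, with a library left out, Cd44 (-2.03 to 7.03) and Gzmb (-2.19 to 0.77). With mitochondrially encoded genes out of the totals, the difference in share changed sign for erythroid cells (-0.000704 percentage points), nuclear oxidative phosphorylation (-0.00520), the proteasome (-0.0748) and DNA repair (-0.0164). Leaving out 1 library turned the sign of 12 lists' differences, which ran from -0.106 to 0.780 for T cell identity, -0.0364 to 0.315 for the progenitor state, -2.95 to 0.138 for class II, -0.0281 to 0.00180 for CD4 T cells, -0.00216 to 0.00132 for erythroid cells, -0.0833 to 0.111 for hypoxia, -0.00409 to 0.159 for glycolysis, -0.0810 to 0.00972 for branched chain catabolism, -0.00423 to 0.368 for nuclear oxidative phosphorylation, -0.119 to 0.249 for the proteasome, -0.0394 to 0.0750 for DNA repair and -0.0985 to 0.547 for heat shock. The Trbv17 difference ran from 0 (without TetLowProg 9) to 16.2 percentage points. The cause of these changes was not tested. Genes higher in every TetLowProg library numbered 186 without TetLowReg 6 and 2023 without TetLowProg 10, and those higher in every TetLowReg library 937 and 52. Thinned to the same total count, the sparse libraries held 740 and 1118 genes. Of 358 recomputed list medians, 63 moved by more than their spread.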
